A study of Mus musculus with 30 samples.

Results

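Imprinted genes are transcribed mainly from the copy inherited from 1 parent. A list of 37 mouse genes that are imprinted or lie in imprinted domains was followed through the loss and the brief return of doxycycline in a mouse embryonic stem cell clone whose Nanog depends on the drug. Members were taken where a probe set of the array (a transcript cluster) carried that gene symbol and no other, and 31 of the 37 were found this way, among 28815 clusters on the array. H19 and Zrsr1 had no such cluster, and Mirg, Snrpn, Ube3a and Gnas were read only by clusters that carry several symbols, so these 6 genes were not analysed here. Each of the 31 had exactly 1 such cluster, so no choice between clusters was needed.

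The clone, named NgR and AINV15_Nanog_Rescue in the labels, was derived from rtTA-expressing embryonic stem cells and kept on primary mouse embryonic fibroblasts. All 10 groups, of 3 arrays each, are this single clone. Day 0 cells were in doxycycline at 1 ug/ml (+Dox). Cells were then taken 1, 3 and 5 days after withdrawal (-Dox), and on each of these days after a further 12 h with a doxycycline pulse (+12h Dox) or without it (minus 12h Dox in the labels, called the timed control). No group was kept in doxycycline over the same days, so withdrawal and time in culture cannot be told apart. No group has Nanog independent of the drug, so Nanog and doxycycline itself cannot be told apart either.

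In an imprinted domain, DNA methylation laid down in the egg or the sperm marks a control region and is read as a difference in transcription between the 2 parental copies. Several imprinted genes act on the supply of fetal growth factors or on placental growth, and many sit in clusters with long noncoding RNAs. The zinc-finger protein ZFP57 and its partner TRIM28 hold the methylation mark through early development and in embryonic stem cells. The array sums both copies, so the values below say nothing of which parental copy was transcribed. In bulk RNA, fewer cells expressing a gene and less RNA per cell cannot be told apart.

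Values are log2 signals, so a difference of 1 is 2-fold. Differences are given with the standard error (SE) and the p-value from limma, adjusted by the Benjamini-Hochberg method over 23385 clusters with a symbol, and a gene was called at an adjusted p under 0.05. Nanog was lower in every group without doxycycline than at day 0, but did not fall steadily. Its signal was 11.04, 11.05 and 11.01 at day 0 and 10.32, 10.23 and 10.17 at day 1 of withdrawal. It was higher again at day 3, at 10.48, 10.48 and 10.57, and read 10.06, 9.86 and 9.64 at day 5. After the day 5 pulse it was 11.00, 10.83 and 10.70. The stem cell factors Pou5f1 (day 0 mean 12.35) and Sox2 (12.11) were bright at day 0. Array medians lay between 7.32 and 7.46. The 4 arrays with the widest spread of signals were all timed controls: replicates 2 and 3 of day 5, replicate 2 of day 3 and replicate 3 of day 1, with interquartile ranges from 2.77 to 2.95 against 2.43 to 2.71 for the other 26 arrays. Values of the pulse comparisons, which rest on these controls, are therefore given with and without them where they matter. Without them the day 5 control is replicate 1 alone, so only effect sizes are given for day 5 in that setting.

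Markers of cell state and of other cells moved over the same days. Of 14 genes of the naive stem cell state, Nanog among them, 12 were lower at day 5 and 1 higher, with a median change of -0.94, and their mean log2 signal went from 10.32 to 10.38 at day 0 to 9.38 to 9.52. Zfp42 changed by -1.80 ± 0.097 (adjusted p = 4.75e-14), Pou5f1 by -1.29 ± 0.088 (4.28e-12) and Sox2 by -0.49 ± 0.08 (1.44e-05). By day 5, 10 of 17 trophectoderm markers had risen and none had fallen, and their mean log2 signal went from 7.47 to 7.51 at day 0 to 8.43 to 8.52. Of the extraembryonic endoderm markers 15 of 25 rose and 1 fell (7.77 to 7.80 at day 0, 8.23 to 8.28 at day 5). Of the fibroblast markers, which read feeder cells among others, 13 of 29 rose and 2 fell (7.30 to 7.34 at day 0, 7.50 to 7.61 at day 5). The fibroblast collagen Col1a1 changed by 0.26 ± 0.074 (SE, adjusted p = 0.00534) and the fibroblast marker Thy1 by -0.49 ± 0.13 (adjusted p = 0.00301). Of the neural markers 10 of 13 fell and none rose. Over all clusters 23.8% were called higher and 18.8% lower at day 5. The array has no true zero, and the part of these markers in the changes of the imprinted genes was not tested.

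Imprinted genes mostly rose after withdrawal, a few from day 1 and most by day 5. At day 1, 6 of 31 members were called, which is 19.4% of the members against 6.51% of all clusters. All 6 were higher, where 3.49% of clusters were called higher and 3.02% lower. At day 3, 18 were called, which is 58.1% against 33.8% of all clusters. Of these, 14 were higher (19.6% of clusters were) and 4 lower (14.3%). At day 5, 22 were called, which is 71% against 42.5%. Of these, 18 were higher (23.8% of clusters) and 4 lower (18.8%). The 3 comparisons share the day 0 arrays. At day 3, 6 of the called members had changed at least 2-fold, and at day 5, 10 had. The share of all clusters called at that size was not computed. The median member stood 0.54 above day 0 at day 5, where the median of all clusters was -0.01. When the arrays were shifted to equal medians, 12 members were called higher and 6 lower at day 3, and 17 and 6 at day 5. The shares of all clusters under that setting were not computed.

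Genes known to be expressed from the paternal copy and those known to be expressed from the maternal copy, in at least some tissues, both rose more often than they fell. Of 16 paternally expressed members, 9 were higher and 1 lower at day 5, with a median change of 0.35. Of 12 maternally expressed members, 7 were higher and 2 lower, with a median of 0.90. The other 3 members (Grb10, Ddc and Inpp5f) were set apart as mixed and not assigned to either copy, and 2 rose and 1 fell. Of all clusters, 23.8% were called higher and 18.8% lower at day 5. The difference between these sets of members was not tested.

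**Figure D1:**
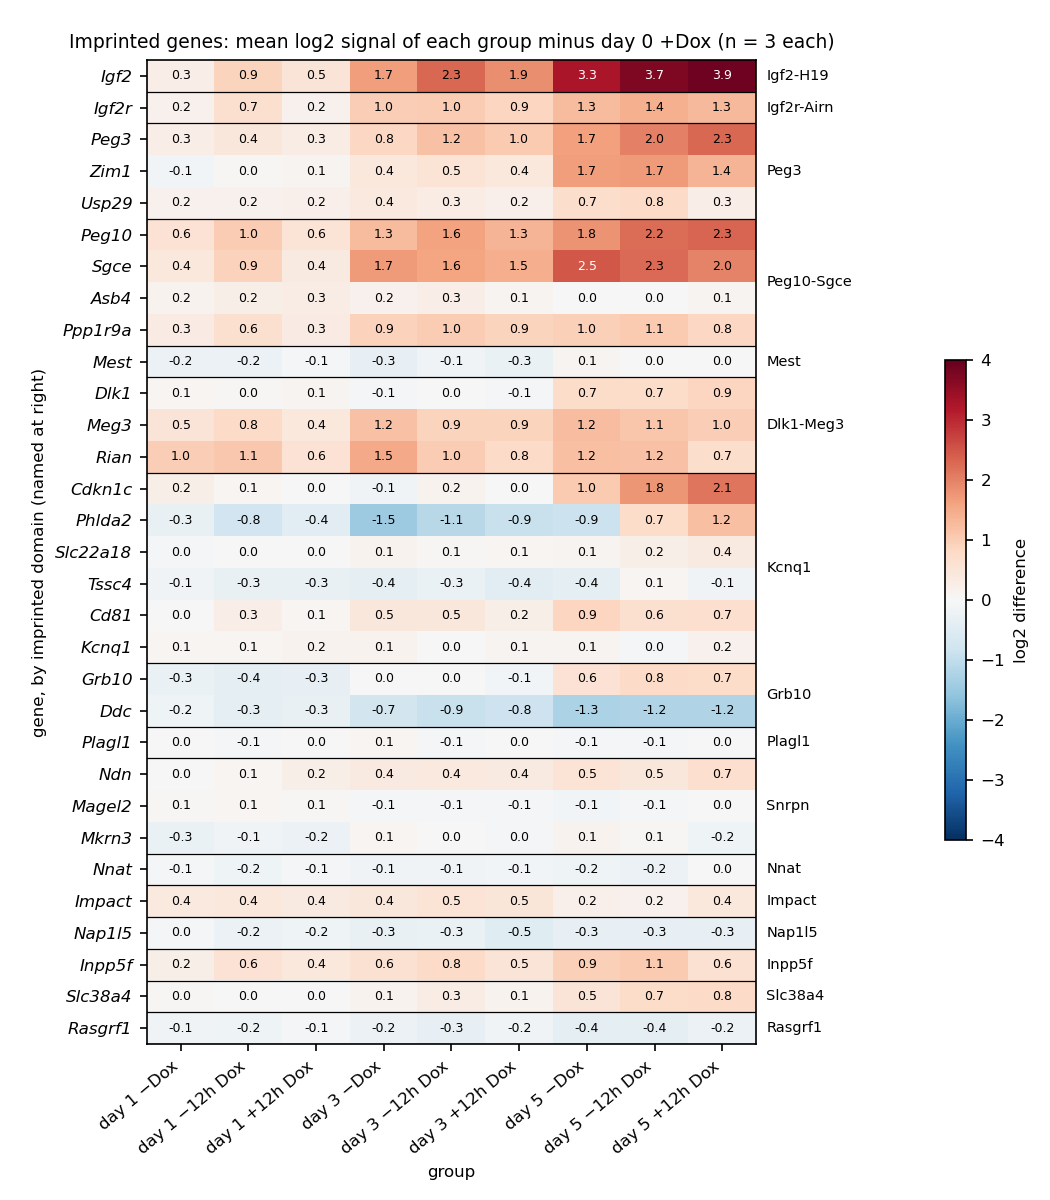
Mean log2 signal of each group minus the day 0 +Dox mean for the 31 imprinted genes (rows, by domain) in the other 9 groups (columns), 3 arrays per group; red is higher and blue lower than day 0. Igf2 (3.28) and Sgce (2.47) hold the largest rises at day 5 -Dox, and Phlda2 is below day 0 at day 3 (-1.45) and day 5 (-0.87) -Dox.

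The largest rise of the set was that of Igf2, the fetal insulin-like growth factor expressed from the paternal copy. Its signal was 8.49, 8.33 and 8.48 at day 0, then 8.56, 8.80 and 8.79 at day 1, 10.21, 10.01 and 10.08 at day 3, and 11.57, 11.54 and 12.02 at day 5. Each day lay wholly above the day before it. The difference from day 0 was 0.28 ± 0.11 at day 1 (adjusted p = 0.174, not called), 1.67 ± 0.11 at day 3 (1.7e-11) and 3.28 ± 0.11 at day 5 (7.21e-18), the last a 9.68-fold rise. Igf2r, the maternally expressed receptor that binds IGF2 and takes it to lysosomes, rose too. It read 8.96, 8.69 and 8.66 at day 0, 9.79, 9.78 and 9.67 at day 3, and 9.94, 10.02 and 10.16 at day 5, with no overlap between the days. Its rise was 0.98 ± 0.089 at day 3 (adjusted p = 3.09e-09) and 1.27 ± 0.089 at day 5 (7.68e-12). Airn, the noncoding RNA transcribed across the Igf2r promoter from the paternal copy, rose by 0.60 ± 0.11 at day 3 (adjusted p = 0.000129) and by 1.27 ± 0.11 at day 5 (5.59e-10). Sense and antisense signals at this locus can be told apart only as far as the array's probes are strand-specific, which was not checked here.

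In the rest of the insulin-like growth factor pathway more genes were called higher than lower from day 3 on. Of 21 measured genes of the pathway, 2 were higher and 1 lower at day 1, 11 higher and 2 lower at day 3, and 13 higher and 2 lower at day 5, with a median change of 0.52 at day 5. Of all clusters, 3.49% were called higher and 3.02% lower at day 1, 19.6% and 14.3% at day 3, and 23.8% and 18.8% at day 5. The receptors rose at day 5, the insulin receptor Insr by 1.46 ± 0.085 (adjusted p = 2.1e-13) and Igf1r, which carries the growth signal of both IGFs, by 1.07 ± 0.11 (9.42e-09). Igf2bp3, an RNA-binding protein named for the Igf2 transcript, rose by 1.39 ± 0.10 (adjusted p = 1.16e-11). Of the binding proteins, which hold IGFs outside the cell, Igfbp4 rose by 1.74 ± 0.11 (7.56e-13) and Igfbp6 by 1.23 ± 0.08 (1.66e-12). Igfbp7 went the other way from day 1, when it was -0.70 ± 0.073 (adjusted p = 4.02e-07), and stood at -0.74 ± 0.073 at day 5 (3.98e-09).

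The paternally expressed pair Peg10 and Sgce rose at every step. Peg10 descends from a retrotransposon gag-pol gene and is needed for the placenta. It read 10.49, 10.27 and 10.28 at day 0, 10.81, 10.96 and 10.95 at day 1, 11.68, 11.55 and 11.61 at day 3, and 12.02, 12.00 and 12.36 at day 5. All arrays of a day were above all arrays of the day before. Sgce encodes epsilon-sarcoglycan, a membrane protein, and its signal was 7.33, 7.61 and 7.36 at day 0, 7.77, 8.05 and 7.73 at day 1, 9.15, 9.23 and 9.04 at day 3, and 9.89, 10.03 and 9.82 at day 5. It too climbed without overlap between days. The change of Peg10 was 0.56 ± 0.083 at day 1 (adjusted p = 5.66e-05) and 1.78 ± 0.083 at day 5 (3.15e-15). That of Sgce was 0.41 ± 0.11 at day 1 (0.0151) and 2.47 ± 0.11 at day 5 (4.33e-16), or 5.56-fold. The day 1 call of Sgce was lost in 3 of the 6 fits that left out 1 array of the compared groups, those without day 0 replicate 1 or 3 or day 1 replicate 2 (adjusted p up to 0.132).

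Their neighbours did not all follow. Ppp1r9a, which encodes the actin-binding protein neurabin, rose from 7.64, 7.63 and 7.52 at day 0 to 7.77, 8.10 and 7.92 at day 1 and 8.52, 8.63 and 8.39 at day 3. At day 5 it read 8.60, 8.61 and 8.42, and the step from day 3 to day 5 was not called. The day 1 difference (0.33) was called, but not in 5 of the 6 fits that left out 1 array (adjusted p up to 0.252), all but that without day 1 replicate 1. Asb4 lay between 5.65 and 6.39 in all 30 arrays and was not called at any day. Its signal is among the lowest 40% of clusters, where a change is hard to see. Casd1, which adjoins Sgce, rose by 0.40 ± 0.11 at day 1 (adjusted p = 0.0214) and by 0.76 ± 0.11 at day 5 (1.34e-06). Mest, a paternally expressed gene elsewhere on chromosome 6 that encodes a hydrolase-like protein, was lower at day 3 and not at day 5. It read 9.97, 10.04 and 10.00 at day 0, 9.92, 9.61 and 9.48 at day 3 and 10.09, 9.91 and 10.30 at day 5. The fall at day 3 was called (-0.34 ± 0.13, adjusted p = 0.0406), and the difference at day 5 was not (0.10 ± 0.13, 0.577). The day 3 call held without day 3 replicate 1 and was lost in the other 5 fits that left out 1 array (adjusted p up to 0.195).

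In the Peg3 domain the 3 members measured all rose by day 5. Peg3 and Usp29 are paternally expressed, start next to each other and run apart. In the RefSeq annotation (build GRCm38.p6) 163 bases separate their starts, shown in capitals in the Peg3 window of 250 bases before to 50 bases after its start, on the minus strand at chr7:6730370-6730669. It is given because both genes that leave it rose. The windows of Peg3 and Usp29 share 263 bases.
Peg3: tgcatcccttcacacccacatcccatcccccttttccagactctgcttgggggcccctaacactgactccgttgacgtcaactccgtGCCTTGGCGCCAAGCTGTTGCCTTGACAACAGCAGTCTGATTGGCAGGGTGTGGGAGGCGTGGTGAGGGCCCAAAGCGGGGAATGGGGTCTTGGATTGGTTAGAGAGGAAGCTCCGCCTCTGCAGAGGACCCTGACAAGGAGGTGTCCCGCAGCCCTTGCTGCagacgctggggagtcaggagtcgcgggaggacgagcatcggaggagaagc

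Peg3, a zinc-finger protein that binds DNA, read 8.60, 8.62 and 8.33 at day 0, 9.54, 9.32 and 9.21 at day 3 and 10.21, 10.09 and 10.21 at day 5. It rose by 0.84 ± 0.11 at day 3 (adjusted p = 5.75e-07) and by 1.65 ± 0.11 at day 5 (1.28e-12). Usp29, a deubiquitinase, was dimmer and moved less, from 5.97, 5.81 and 6.07 at day 0 to 6.77, 6.71 and 6.50 at day 5 (0.71 ± 0.14, adjusted p = 0.000213). The maternally expressed Zim1, another zinc-finger gene, rose a little by day 3 (0.41 ± 0.10, adjusted p = 0.0023) and then climbed. Its signal was 6.36, 6.41 and 6.20 at day 0, 6.79, 6.73 and 6.69 at day 3 and 8.03, 7.91 and 8.00 at day 5, with no overlap between these days. The step from day 3 to day 5 was 1.24 ± 0.10 (adjusted p = 2.87e-09), and the rise from day 0 was 1.66 ± 0.10 (7.36e-13). Zim1 and Usp29 are both among the lowest 40% of clusters by mean signal.

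In the Dlk1-Meg3 domain the maternal noncoding RNAs rose early and the paternal coding gene late. Rian, a long noncoding RNA that carries small nucleolar RNAs, had the largest change of any member at day 1. It read 7.20, 7.44 and 7.12 at day 0, 8.19, 8.34 and 8.18 at day 1, 8.86, 8.74 and 8.70 at day 3, and 8.57, 8.58 and 8.20 at day 5. The rise was 0.98 ± 0.12 at day 1 (adjusted p = 2.35e-06), 1.51 ± 0.12 at day 3 (1.44e-10) and 1.19 ± 0.12 at day 5 (3.38e-09). Meg3, the noncoding RNA at the head of the same transcribed stretch, read 9.68, 9.53 and 9.57 at day 0, 10.06, 10.10 and 10.17 at day 1, 10.73, 10.77 and 10.77 at day 3, and 10.96, 10.94 and 10.54 at day 5. Its rise was 0.52 ± 0.085 at day 1 (0.000215) and 1.22 ± 0.085 at day 5 (6.87e-12). For both RNAs the step from day 3 to day 5 was not called. Dlk1, a membrane protein related to Notch ligands, read 8.11, 7.78 and 7.97 at day 0 and 7.84, 7.78 and 7.99 at day 3, which overlap. At day 5 its arrays were all higher, at 8.71, 8.70 and 8.60 (0.72 ± 0.088, adjusted p = 1.37e-07).

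The Meg3 window is shown because it holds the 6-letter motif TGCCGC that ZFP57 binds when methylated, here on the reverse strand and in capitals, at chr12:109540746-109541045, plus strand, from RefSeq (GRCm38.p6).
Meg3: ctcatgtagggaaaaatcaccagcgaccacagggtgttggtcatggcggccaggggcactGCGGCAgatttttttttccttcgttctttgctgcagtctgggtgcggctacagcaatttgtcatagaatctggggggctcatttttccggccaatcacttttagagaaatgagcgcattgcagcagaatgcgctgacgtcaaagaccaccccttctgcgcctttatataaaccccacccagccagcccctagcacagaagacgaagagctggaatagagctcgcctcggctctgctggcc
Searched on both strands, TGCCGC is present in 9 of the 38 windows that the table holds for 26 member genes (23.7%), and in 3813 of all 32851 windows of that length (11.6%). Its 8 member genes are Grb10, Igf2, Meg3, Mest, Nap1l5, Nnat, Plagl1 and Zim1. Of these, Igf2, Meg3, Grb10 and Zim1 rose by day 5, and Mest, Nap1l5, Nnat and Plagl1 were not called then. A match describes the letters of the window and is not evidence of binding.

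Of the microRNA genes strung along the same maternal transcripts, a minority were called higher at day 1 and most at days 3 and 5. MicroRNAs are short RNAs that pair with messenger RNAs through their seed, bases 2 to 8. Of 57 listed for the domain, 40 had a cluster. Of these, 8 were higher at day 1 and none lower, 25 were higher and 1 lower at day 3, and 27 were higher and 1 lower at day 5, with a median change of 0.49 at day 5. The other 12 were not called at day 5. The shares called higher were 20%, 62.5% and 67.5% at days 1, 3 and 5. Of all clusters, 3.49%, 19.6% and 23.8% were called higher and 3.02%, 14.3% and 18.8% lower. These probes read the region of the hairpin with few probes, so they cannot separate the mature microRNA from the precursor or from the host transcript. The single fall was that of Mir666 (-0.47 ± 0.11 at day 5, adjusted p = 0.00067). Mir300, Mir382 and Mir495 rose most at day 5, and both mature arms of each are shown with the seed in capitals, from RefSeq.
mmu-miR-300-5p: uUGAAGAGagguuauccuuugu
mmu-miR-300-3p: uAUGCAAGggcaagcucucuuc
mmu-miR-382-5p: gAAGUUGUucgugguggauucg
mmu-miR-382-3p: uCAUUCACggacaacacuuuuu
mmu-miR-495-5p: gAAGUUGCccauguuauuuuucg
mmu-miR-495-3p: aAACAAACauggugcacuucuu
No seed was shared among the 12 mature arms of the 6 microRNA genes with the largest rises at day 5, which include Mir377, Mir380 and Mir379.

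Mir300 read 6.05, 6.25 and 5.63 at day 0, 6.29, 6.82 and 6.88 at day 1, 7.86, 7.87 and 7.65 at day 3 and 7.74, 7.90 and 7.88 at day 5. It had reached its level by day 3, and the rise at day 5 was 1.86 ± 0.18 (adjusted p = 2.3e-09). Mir382 took the same course, from 5.96, 6.20 and 6.20 at day 0 to 7.86, 7.63 and 7.52 at day 3 and 7.72, 7.58 and 7.81 at day 5 (1.58 ± 0.15, 1.33e-09). Mir495 was dim, at 3.79, 3.69 and 3.33 at day 0 and 5.28, 4.77 and 5.12 at day 5 (1.46 ± 0.18, adjusted p = 1.16e-07). Mir377 stood 1.98 ± 0.22 above day 0 at day 3 and 1.32 ± 0.22 at day 5. By position, 4 of 8 microRNA genes between Meg3 and Rian were higher at day 5 (median 0.26), 18 of 24 within or after Rian (median 0.59), and 5 of 7 within or after Mirg (median 0.68). Of all clusters, 23.8% were called higher at day 5. Whether these stretches differ was not tested.

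**Figure D2:**
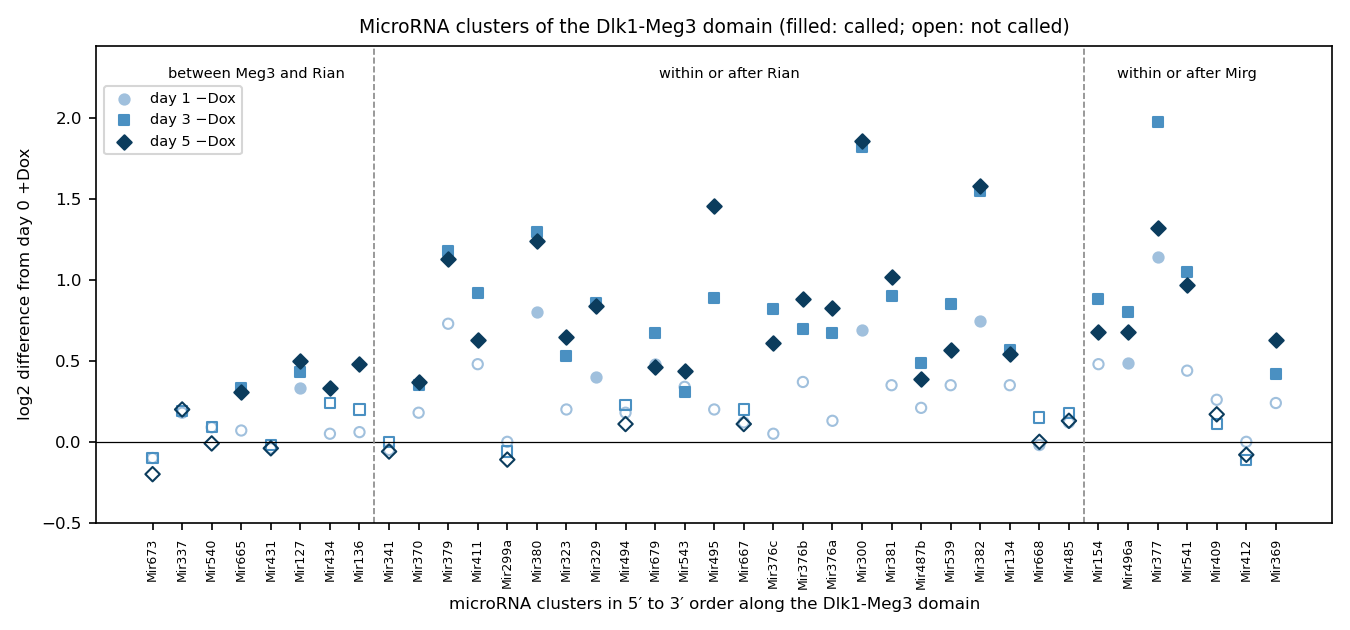
Log2 change against day 0 of the microRNA genes of the Dlk1-Meg3 domain with a RefSeq hairpin, in their order along the domain, at days 1, 3 and 5 -Dox. Changes within or after Rian and Mirg reach 1.98 (Mir377, day 3) and 1.86 (Mir300, day 5), and the median of the 8 genes between Meg3 and Rian was 0.26 at day 5.

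The Kcnq1 domain held members that rose, fell or stayed. Cdkn1c encodes the cell cycle inhibitor p57, a brake on growth expressed from the maternal copy. It read 9.60, 9.63 and 9.49 at day 0, 9.82, 9.76 and 9.86 at day 1, 9.51, 9.36 and 9.42 at day 3, and 10.47, 10.46 and 10.90 at day 5. The day 1 arrays lay above day 0, but that difference was not called. The step from day 1 to day 3 was called lower (-0.38), also in all 6 fits that left out 1 array. The step from day 3 to day 5 was a rise (1.18 ± 0.11, adjusted p = 1.4e-08). Phlda2, a maternally expressed gene that restrains placental growth, went down first. It read 10.99, 11.21 and 11.13 at day 0, 10.98, 10.60 and 10.82 at day 1, 9.87, 9.40 and 9.69 at day 3, and 10.49, 10.04 and 10.19 at day 5. The change was -1.45 ± 0.17 at day 3 (2.56e-07) and -0.87 ± 0.17 at day 5 (0.000169), and the partial return from day 3 to day 5 was called (0.58 ± 0.17, adjusted p = 0.0247). The call of that return was lost without day 3 replicate 2 or 3 and without day 5 replicate 1 or 3 (adjusted p up to 0.153). No array of days 3 or 5 reached the lowest array of day 0.

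Cd81, a tetraspanin of the same domain, rose by 0.46 ± 0.063 at day 3 and 0.85 ± 0.063 at day 5, when its arrays read 12.40, 12.55 and 12.45 against 11.59, 11.66 and 11.60 at day 0 (adjusted p = 2.23e-11). Tssc4 fell a little, by 0.36 on the log2 scale at day 5 (SE 0.094, adjusted p = 0.00275). Slc22a18, a membrane transporter, and Kcnq1, a potassium channel subunit, were not called at any day, with differences at day 5 of 0.12 ± 0.08 and 0.12 ± 0.097. Ascl2, a trophoblast transcription factor in the list of imprinted neighbours, rose by 0.52 ± 0.098 at day 5 (adjusted p = 8.72e-05).

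Grb10 and its neighbour Ddc moved in opposite directions. Grb10 encodes an adaptor that dampens insulin and IGF receptor signalling. Its signal was 9.70, 9.71 and 9.55 at day 0, 9.50, 9.29 and 9.36 at day 1, 9.84, 9.63 and 9.48 at day 3, and 10.28, 10.19 and 10.26 at day 5. Only the day 5 level was called against day 0 (0.59 ± 0.11, adjusted p = 6.33e-05). Ddc, the decarboxylase that makes dopamine and serotonin, read 8.71, 8.69 and 8.91 at day 0, 8.64, 8.64 and 8.55 at day 1, 8.00, 8.10 and 8.02 at day 3, and 7.47, 7.53 and 7.54 at day 5. It descended at each step without overlap, to -1.26 ± 0.073 at day 5 (2.3e-13). Cobl, on the other side of Grb10, fell as well, by 0.95 on the log2 scale at day 5 (SE 0.069, adjusted p = 1.62e-11).

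The genes of the Snrpn domain that were measured changed little. Ndn, a MAGE family growth suppressor, rose by 0.35 ± 0.13 at day 3 (adjusted p = 0.0399) and 0.54 ± 0.13 at day 5 (0.00126), where its arrays read 8.87, 8.55 and 8.56 against 7.97, 8.19 and 8.19 at day 0. The day 3 call was lost when the arrays were shifted to equal medians, and in 5 of the 6 fits that left out 1 array (adjusted p up to 0.168), all but that without day 0 replicate 2. Its relative Magel2 and the ring-finger gene Mkrn3 were not called against day 0 at any day. Their differences at day 5 were -0.12 ± 0.081 and 0.12 ± 0.10, and both are in the lowest 40% of clusters.

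The members outside these clusters split. Inpp5f, an inositol phosphatase, rose from 7.71, 7.95 and 7.83 at day 0 to 8.61, 8.52 and 8.23 at day 3 and 8.71, 8.76 and 8.86 at day 5 (0.94 ± 0.10, adjusted p = 1.47e-08). Slc38a4, an amino acid transporter of liver and placenta, rose by 0.50 ± 0.064 at day 5 (2.8e-07). Impact, a regulator of the stress kinase GCN2, was up early and then less so. It read 10.74, 10.77 and 10.58 at day 0, 11.13, 11.03 and 11.07 at day 1, 11.19, 11.13 and 11.10 at day 3, and 11.00, 10.91 and 10.76 at day 5, where it overlaps day 0 although it was called (0.19 ± 0.065, adjusted p = 0.0182). That call was lost when the arrays were shifted to equal medians, on the compared groups alone, and without day 0 replicate 3 or day 5 replicate 1 or 2 (adjusted p up to 0.14). Rasgrf1, a Ras exchange factor, fell by 0.36 on the log2 scale at day 5 (SE 0.11, adjusted p = 0.0103; 0.0667 without day 0 replicate 3). Plagl1, Nnat and Nap1l5 were dim and not called at any day, with day 5 differences of -0.06, -0.16 and -0.31.

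**Figure D3:**
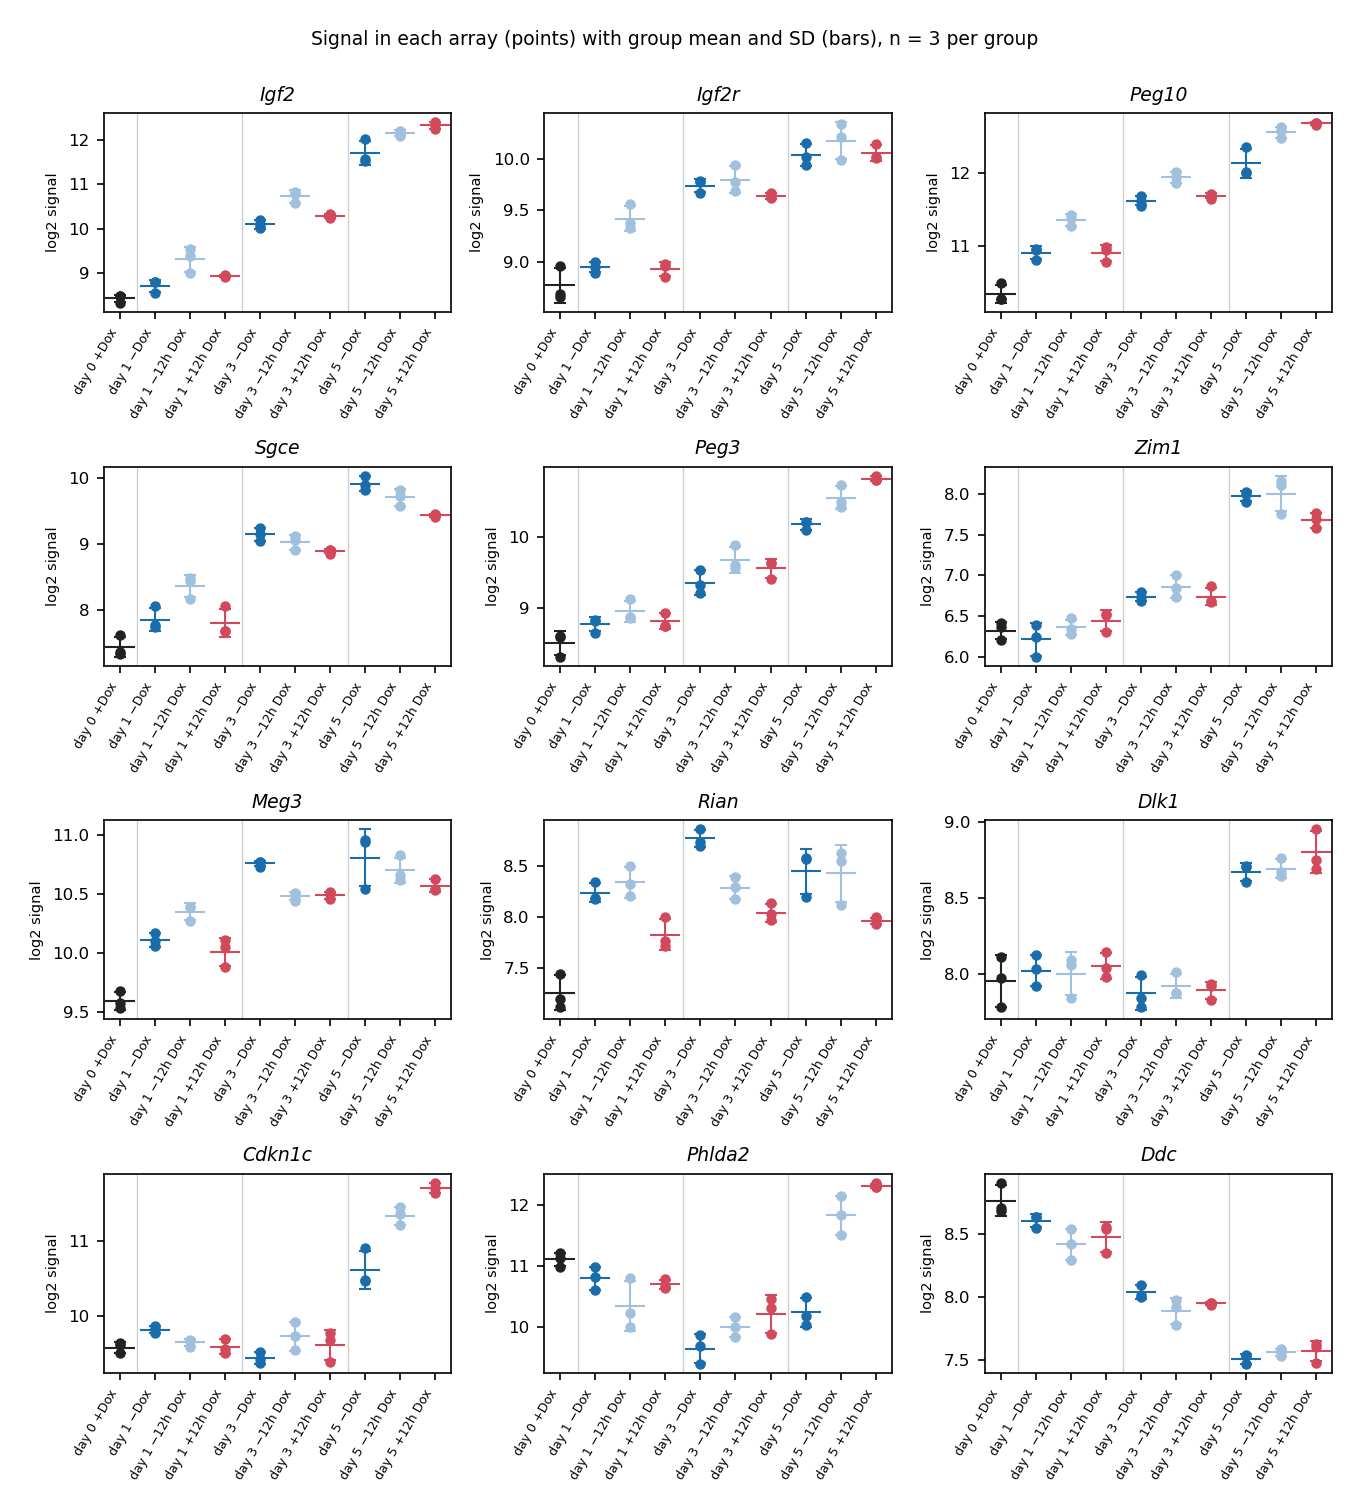
Log2 signal of 12 members in every array (points), with group mean and SD (bars), in the 10 groups in order of day, 3 arrays per group. Igf2 climbs from 8.33 to 8.49 at day 0 to 11.54 to 12.02 at day 5 -Dox, and Phlda2 at day 5 stands at 10.04 to 10.49 -Dox, 11.51 to 12.15 in the timed control and 12.29 to 12.36 after the pulse.

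Between day 1 and day 3, 15 of 31 members were called, which is 48.4% against 22.9% of all clusters. Of these, 12 were higher (13.2% of clusters) and 3 lower (9.77%). Between day 3 and day 5, 16 were called, which is 51.6% against 12.3%. Of these, 14 were higher (7.59% of clusters) and 2 lower (4.75%). Of the members first called against day 0 at day 5, Dlk1 (0.80 ± 0.088), Cdkn1c (1.18 ± 0.11), Grb10 (0.59 ± 0.11) and Slc38a4 (0.37 ± 0.064) rose in the later step, and Rasgrf1 was not called in it. Impact fell by 0.25 on the log2 scale in that step (SE 0.065, adjusted p = 0.00959), a call that was lost on the compared groups alone and without day 3 replicate 1 or day 5 replicate 3 (adjusted p up to 0.0984). Of the 16 calls of that step, 11 held in every fit that left out 1 array, and those of Igf2r, Mest, Phlda2, Impact and Inpp5f did not.

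Neighbours within a domain were also compared array by array, as the log2 difference between the 2 genes at day 5 against day 0. With 3 arrays against 3 the exact two-sided permutation test allows no p below 0.1. Of 10 pairs planned, 6 could be run. The difference Cdkn1c minus Phlda2 went from -1.54 ± 0.13 (SD, n = 3) to 0.37 ± 0.36, a shift of 1.91, and Grb10 minus Ddc from 0.88 ± 0.21 to 2.73 ± 0.074, a shift of 1.84. Peg3 minus Usp29 shifted by 0.94, Peg10 minus Sgce by -0.69 and Dlk1 minus Meg3 by -0.50. For these 5 pairs the arrays of the 2 days did not overlap and the exact p was 0.1 (0.12 after Benjamini-Hochberg over the 6 pairs). Meg3 minus Rian was 2.34 ± 0.22 at day 0 and 2.36 ± 0.03 at day 5 (exact permutation p = 1). Such a shift shows unequal change of 2 probe sets and no more.

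The timed controls were compared with the -Dox cells of the same day, taken 12 h earlier. The further 12 h cannot be told apart here from the wider spread of 4 of the control arrays. After day 1, 6 of 31 members were higher and none lower than in the -Dox cells of that day (19.4% called against 6.25% of all clusters, of which 5.02% were higher and 1.23% lower). They were Igf2 (0.60 ± 0.11, adjusted p = 0.00306), Sgce (0.51), Igf2r (0.48), Peg10 (0.45), Inpp5f (0.34) and Cd81 (0.29). Inpp5f lost its call in 5 of the 6 fits that left out 1 array, all but that without -Dox replicate 2 (adjusted p up to 0.172), and the other 5 members kept theirs. On the compared groups alone 1 of the 6 was called, Igf2r. After day 3, 3 members were called (9.68% against 1.69% of clusters, of which 1.29% were higher and 0.402% lower). Igf2 was again higher (0.63 ± 0.11, 0.00229), Peg10 was higher (0.32) and Rian lower (-0.48). Leaving out any single array of these groups kept Igf2 and lost Peg10 and Rian.

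After day 5, 7 members were higher and none lower (22.6% called against 3.31% of clusters, of which 2.32% were higher and 0.984% lower). Phlda2 stood out in size, from 10.49, 10.04 and 10.19 in the -Dox cells to 11.84, 11.51 and 12.15 in the controls 12 h later, a 3.02-fold rise (1.59 ± 0.17, adjusted p = 5.66e-06). Its arrays did not overlap, and the controls were above all arrays of day 0 as well. Cdkn1c went from 10.47, 10.46 and 10.90 to 11.22, 11.36 and 11.45 (0.73 ± 0.11, 0.000197). Igf2 (0.45), Tssc4 (0.44), Peg10 (0.43), Peg3 (0.37) and Slc38a4 (0.23) were the others. Beside this, 6 of 17 trophectoderm markers were higher in the same comparison and none lower (mean signal 8.72 to 8.87 in the controls), while 5 of 29 fibroblast markers were lower and none higher. The part of these markers in the result was not tested. The count was 4 without any 1 of the 3 -Dox arrays and 3 without control replicate 3. Phlda2, Cdkn1c and Peg10 kept their calls in all 6 fits that left out 1 array, while Igf2, Tssc4, Peg3 and Slc38a4 lost theirs in 2 to 5 of them. Without the 4 arrays of widest spread the day 5 control was replicate 1 alone. Phlda2 then differed by 1.60 and Cdkn1c by 0.61, values that rest on that single control array.

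A 12 h pulse of doxycycline was compared with the timed control of the same day. These controls also enter the comparison above, so a control group that stands high raises the one and lowers the other. At day 1, 5 of 31 members were lower with the pulse and none higher (16.1% called against 3.75% of all clusters, of which 3.2% were lower and 0.547% higher). Sgce read 8.44, 8.16 and 8.48 in the controls and 7.68, 7.68 and 8.05 after the pulse (-0.56 ± 0.11, adjusted p = 0.0029). Rian read 8.32, 8.21 and 8.50 against 7.72, 7.77 and 8.00 (-0.51 ± 0.12, 0.012). For both, the groups did not overlap.

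Igf2r read 9.38, 9.33 and 9.56 in the day 1 controls against 8.98, 8.96 and 8.85 after the pulse (-0.49 ± 0.089, adjusted p = 0.00196). Peg10 read 11.39, 11.42 and 11.27 against 10.98, 10.94 and 10.78 (-0.46 ± 0.083, 0.00196). Meg3 read 10.39, 10.27 and 10.39 against 10.05, 10.11 and 9.88 (-0.34 ± 0.085, 0.0239). In each, the pulse arrays lay wholly below the controls. In the -Dox cells taken 12 h earlier, mean signals were 7.85 (Sgce), 8.24 (Rian), 8.95 (Igf2r), 10.91 (Peg10) and 10.11 (Meg3). After the pulse these means were 7.80, 7.83, 8.93, 10.90 and 10.01, and their difference from the -Dox cells was not tested. Igf2, at 9.38, 9.55 and 9.00 against 8.91, 8.94 and 8.96, was not called (-0.38 ± 0.11, 0.0645), although no array overlapped. Mir300 (-0.85 ± 0.18, adjusted p = 0.00689), Mir382 (-0.83 ± 0.15, 0.00161) and Mir434 (-0.55 ± 0.11, 0.00675) were lower too, as were Insr (-0.45 ± 0.085) and Igfbp2 (-0.46 ± 0.074) of the IGF pathway. Without the 4 arrays of widest spread all 5 members kept their calls and 8 were called in all, with Igf2 (-0.53 ± 0.11) and Cd81 (-0.26 ± 0.061) lower and Phlda2 higher (0.58 ± 0.15). Fitted on the compared groups alone, none was called. Meg3 lost its call without control replicate 1 or 3 or pulse replicate 1 or 3, and Rian without control replicate 3 or pulse replicate 1 or 2, so that the count was 3 without pulse replicate 1. Sgce, Igf2r and Peg10 kept theirs in all 6 of these fits.

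At day 3 limma called no member at an adjusted p under 0.05, where 0.0385% of all clusters were called. Without adjustment 6 members had a p under 0.05, and the share of all clusters at that looser cut was not computed. Igf2, at 10.84, 10.78 and 10.58 in the controls and 10.24, 10.29 and 10.34 after the pulse, differed by -0.45 ± 0.11 (adjusted p = 0.138). These arrays did not overlap. With array weights in the fit 3 members were called.

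At day 5, 6 members were called, 4 lower and 2 higher (19.4% against 12.2% of all clusters, of which 7.1% were lower and 5.13% higher), and the calls depended on single arrays. Rian was lower with the pulse, at 8.12, 8.63 and 8.55 in the controls and 7.97, 8.00 and 7.93 after it (-0.47 ± 0.12, adjusted p = 0.0137). Inpp5f was lower, from 8.65, 9.06 and 8.93 to 8.58, 8.41 and 8.33 (-0.44 ± 0.10, 0.00786). These 2 did not overlap. Usp29 read 6.24, 7.11 and 6.82 against 6.23, 6.25 and 6.13 (-0.51 ± 0.14, 0.0238), and Zim1 7.76, 8.16 and 8.12 against 7.77, 7.59 and 7.69 (-0.33 ± 0.10, 0.0387), both with overlap. Cdkn1c was higher, from 11.22, 11.36 and 11.45 to 11.64, 11.71 and 11.78 (0.37 ± 0.11, 0.0274), and so was Impact, from 10.86, 10.84 and 10.88 to 11.09, 11.15 and 11.11 (0.26 ± 0.065, 0.0148), without overlap. No call was left without control replicate 2 or without pulse replicate 3, 2 were left without control replicate 3 and 1 without pulse replicate 2, and 12 were made without control replicate 1. Fitted on the compared groups alone, none was called. Without the 4 arrays of widest spread, which leaves control replicate 1 alone, Rian differed by -0.15. With each array's interquartile range as a covariate all 4 lower calls were lost, and the 3 members called, Cdkn1c, Impact and Peg3, were all higher.

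**Figure D4:**
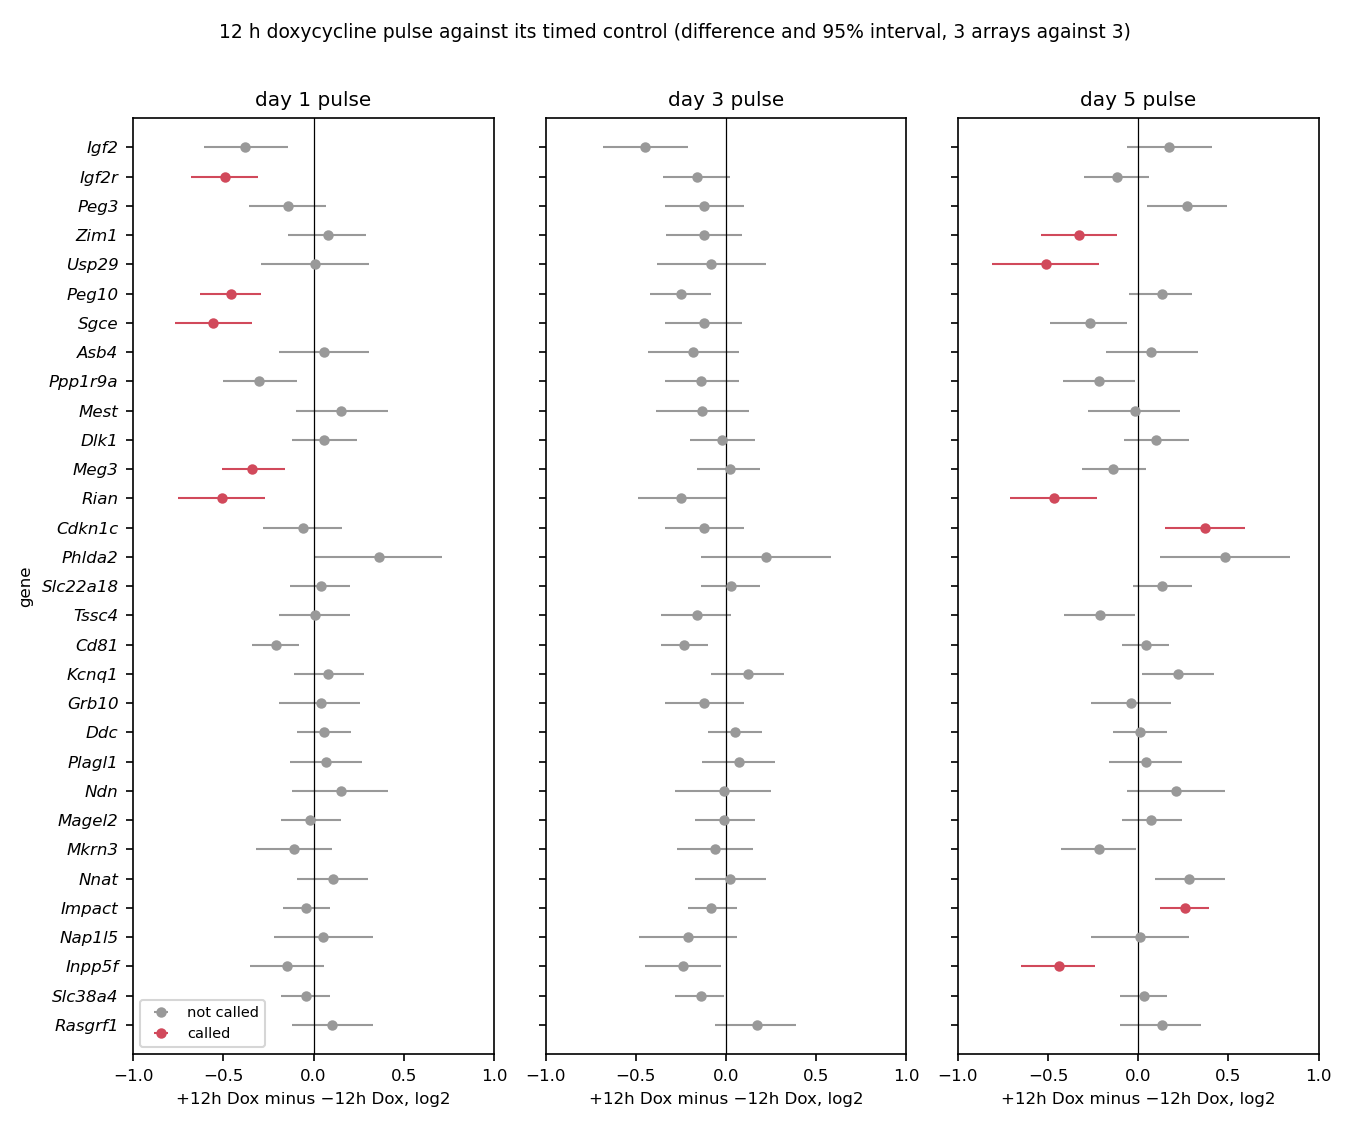
Difference between the pulse and its timed control, pulse minus control on the log2 scale, for the 31 members at days 1, 3 and 5, with 95% confidence intervals; red points were called and grey points were not. At day 1 the 5 called members lie between -0.56 and -0.34, at day 3 none was called, and at day 5 the 6 called lie between -0.51 and 0.37.

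Averaged over the 3 days, 10 of 31 members were called, 9 lower and 1 higher (32.3% against 20.8% of all clusters, of which 14% were lower and 6.8% higher). Those lower were Rian (-0.41 ± 0.068, adjusted p = 0.000286), Sgce (-0.32), Inpp5f (-0.28), Igf2r (-0.26), Igf2 (-0.22), Ppp1r9a (-0.22), Peg10 (-0.20), Meg3 (-0.15) and Cd81 (-0.13). All 9 had been higher at day 5 of withdrawal. The average joins unlike days for some of them. Igf2 differed by -0.38, -0.45 and 0.17 at days 1, 3 and 5, Peg10 by -0.46, -0.25 and 0.13, Cd81 by -0.21, -0.23 and 0.04, and Meg3 by -0.34, 0.02 and -0.14. The other 5 were below their controls on each day. Phlda2 was higher (0.35 ± 0.10, 0.0173), with differences of 0.36, 0.22 and 0.48 at days 1, 3 and 5, none of them called alone. Without the 4 arrays of widest spread, which leaves control replicate 1 alone at day 5, Rian differed by -0.26 and Phlda2 by 0.45. With the interquartile range as a covariate 3 members were called. Without control replicate 1 of day 5, 16 members were called. Igf2 lost its call in 3, Meg3 in 7 and Phlda2 in 1 of the 18 fits that left out 1 array, the last without control replicate 2 of day 5 (adjusted p = 0.0527).

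The pulse effects of single members were compared between days. Peg10 differed between day 5 and day 1, from -0.46 ± 0.083 at day 1 to 0.13 ± 0.083 at day 5 (difference 0.59 ± 0.12, adjusted p = 0.0428), 1 of 31 members against 0.111% of all clusters. It read 12.48, 12.57 and 12.63 in the day 5 controls and 12.69, 12.69 and 12.66 after the pulse. This call was lost in 10 of the 12 fits that left out 1 of its arrays and held without control replicate 3 of day 1 or control replicate 1 of day 5. No member was called between day 3 and day 1, where 0.00855% of all clusters were called, and 3 members had an unadjusted p under 0.05. None was called between day 5 and day 3 either, where 0.936% of all clusters were called, and 7 members had an unadjusted p under 0.05. The largest of these differences between day 5 and day 3 was that of Igf2 (0.62 ± 0.16, adjusted p = 0.059). For both comparisons the share of all clusters at an unadjusted p under 0.05 was not computed.

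In a list of imprint maintenance genes that also holds enzymes that set or oxidize DNA methylation, genes were called in both directions. Of these 30 genes, 3 were higher and 2 lower at day 1, 7 and 8 at day 3, and 7 and 13 at day 5. At day 1 the shares were 10% higher and 6.67% lower, against 3.49% and 3.02% of all clusters. The share called higher was 23.3% at both later days, near the 19.6% and 23.8% of all clusters. The share called lower was 26.7% at day 3 and 43.3% at day 5, against 14.3% and 18.8% of clusters. Zfp57 fell by 0.67 on the log2 scale at day 3 (SE 0.067, adjusted p = 1.37e-08) and by 0.90 at day 5 (2.4e-11), and was 0.25 ± 0.067 higher with the day 1 pulse (adjusted p = 0.0337). It was the only gene of the list called with that pulse (3.33%, against 0.547% of clusters called higher). With the day 3 pulse none was called, and with the day 5 pulse 3 were lower (10%, against 7.1% of clusters) and none higher. Averaged over the pulses, 3 were higher and 8 lower (10% and 26.7%, against 6.8% and 14% of clusters). Trim28 fell by 0.43 at day 5 (SE 0.061, adjusted p = 1.63e-06). The maintenance methyltransferase Dnmt1 rose slightly, by 0.29 ± 0.06 at day 3 (0.000357) and 0.17 ± 0.06 at day 5 (0.0217), while its recruiter Uhrf1 fell by 0.36 at day 5 (SE 0.068, adjusted p = 9.07e-05).

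The de novo methyltransferases first rose. Dnmt3a was up by 0.60 ± 0.085 at day 1 (adjusted p = 3.02e-05) and down at day 5 (-1.09 ± 0.085, 5.17e-11). Dnmt3b took the same course, at 0.41 ± 0.10 (0.0137) and -0.44 ± 0.10 (0.000868), and their cofactor Dnmt3l was called at day 1 (0.34 ± 0.078, 0.00666) and not at day 5 (0.03 ± 0.078). Of the enzymes that oxidize methylcytosine, Tet1 fell by 1.12 at day 5 (SE 0.097, adjusted p = 4.08e-10) and Tet2 by 0.96 (SE 0.096, 5.34e-09). Dppa3, which shields methylation in the zygote, rose by 0.78 ± 0.14 at day 5 (5.8e-05). Khdc3, a maternal-effect gene of the oocyte, had the largest change of the list (-2.54 ± 0.12, 5.83e-15), and Smchd1, a chromatin protein that acts at some imprinted clusters, rose by 0.90 ± 0.12 (4.8e-07).

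Other genes in or next to imprinted domains did not share the rise as a group. Of 43 measured, 13 were higher and 10 lower at day 5, and their median change was -0.02, beside -0.01 for all clusters, of which 23.8% were called higher and 18.8% lower. Herc3, the host gene of Nap1l5, rose by 0.78 ± 0.11 (adjusted p = 7.42e-07), while Nap1l5 itself was at -0.31 ± 0.13 (0.059). Mcts2, a retrogene, fell by 0.76 (SE 0.11, adjusted p = 2.47e-06) and Chrac1 by 0.74 (SE 0.079, 1.53e-08).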

How the data were processed

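Total RNA of 30 samples was read on Affymetrix arrays (Mouse Gene 1.0 ST). The authors deposited log2 signals. The submitters' processing notes name RMA and Affymetrix Expression Console. Their versions and genome build are not given in the sources used here. RMA forces a common distribution on the arrays, so a shift of most genes is not visible. Arrays have no read depth, and 3 per group limit the precision. Clusters were named through the platform table: 21780 carry 1 symbol, 1605 several and 5430 none.

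The 23385 clusters with a symbol were fitted in limma 3.58.1 (R 4.3.3) with 1 mean per group over all 30 arrays, and 15 contrasts were tested with no filter on low signals. The fit was tested on simulated data for day 5 withdrawn against day 0 (23385 clusters, 200 changed): it called 84 of 100 clusters changed by 0.5 (log2), 100 of 100 changed by 1, and 10 unchanged ones. The simulated noise was normal, independent between arrays and equally wide in all of them, while the real arrays differ in spread. These rates hold for that setting, and recovery in the real data was not tested. The labels give no batch and do not say that replicates were separate cultures, so each p-value reflects no more than the spread among these arrays, which may be technical. No 2 replicates held identical values.

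Members and lists were chosen with earlier results of these data known. Every member found may be named, with each array's value where it was called at 1 or more (log2) in withdrawal, called in a pulse, or compared within its domain. Of other lists, up to 6 called genes with the largest change at day 5 and 3 per pulse were named, plus Zfp57, Trim28, Dnmt1, Uhrf1, Dnmt3a, Dnmt3b, Dnmt3l, Dppa3, Tet1 and Tet2. Genes named beyond that rule (Ascl2, Col1a1, Thy1, Mir666, Pou5f1, Sox2, Zfp42) were chosen after their values were seen. Sequences and promoter windows come from RefSeq tables matched by symbol: 26 member genes had a window, and 39 of 40 microRNA genes a hairpin.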

Additional observations from a re-analysis of the deposited data

Results flagged for a closer look

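The effect of the doxycycline pulse on Peg10, against the timed control, differed between day 5 and day 1 by 0.59 ± 0.12 on the log2 scale (SE, limma, adjusted p = 0.0428). It was noted because all 3 pulse arrays of Peg10 lay below the controls at day 1 and above them at day 5. The day 1 pulse arrays averaged 10.90, beside 10.91 in the -Dox cells taken 12 h earlier and 11.36 in the controls. The difference between the pulse effects was not called with the replicate number as a block. Nor was it called with each array centred on its median, or on the compared groups alone.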

How the results depend on the processing

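The 31 members were tried under other settings, 1 of which (leaving out the 4 arrays of widest spread) was chosen after seeing the data. Single-gene values were compared for the withdrawal days against day 0, the pulses and their average, and not for the other contrasts. In these no member changed sign on a call. Each comparison took a member in a contrast under another setting: 3815 kept their side of the threshold, 107 lost the call, 76 gained it and 0 reversed. A change of sign was counted only where the member was called in either fit, so the 3815 may hold sign changes of uncalled members. The withdrawal and step counts held within 1.5 times except day 1 with array weights (10 called). Array weights gave 9 called for the day 1 pulse, 3 for day 3, 12 for day 5, 16 for the average, and 1, 8 and 9 for the differences day 3 minus day 1, day 5 minus day 1 and day 5 minus day 3. Array interquartile range as a covariate gave 3 for the day 5 pulse, 3 for the average, 3 for day 5 minus day 1 and 4 for day 5 minus day 3. The compared groups alone gave 0 for the pulses of day 1 and day 5 and for day 5 minus day 1, and 1 for the timed control at each of the 3 days. Without the 4 widest arrays the count was 8 for the day 1 pulse. Counts that involve the day 5 control are not given for that setting, which leaves replicate 1 alone in that group. Median centring gave 0 for day 5 minus day 1. For day 5 minus day 3, trend and robust moderation gave 4 and leaving out the lowest 40% of clusters gave 2. The cause of these shifts was not tested, and the shares of all clusters called under these settings were not computed. Taking the cluster of lowest mean changed nothing, since each member has 1.

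Leaving out each array in turn, the counts ranged from 4 to 6 at day 1, 15 to 17 at day 3 and 20 to 23 at day 5, 14 to 16 from day 1 to 3 and 11 to 15 from day 3 to 5. For the pulses they ranged from 3 to 5 at day 1, 0 to 0 at day 3, 0 to 12 at day 5 and 8 to 16 for the average, and for their differences 0 to 0 (day 3 minus day 1), 0 to 3 (day 5 minus day 1) and 0 to 1 (day 5 minus day 3). For the timed controls they ranged from 5 to 7, 1 to 1 and 3 to 7. The shifts within domains ranged from 1.74 to 2.10 (Cdkn1c minus Phlda2), 1.72 to 1.91 (Grb10 minus Ddc), 0.79 to 1.06 (Peg3 minus Usp29), -0.86 to -0.57 (Peg10 minus Sgce), -0.60 to -0.44 (Dlk1 minus Meg3) and -0.10 to 0.09 (Meg3 minus Rian).

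Arrays of different groups with the same replicate number did not deviate together (135 pairs, correlations from -0.72 to 0.57, median -0.01, and 8 of 30 arrays matched their own number best), so the numbers were not taken as pairs. With the replicate number as a block the counts were 6, 18 and 22 at days 1, 3 and 5, 5, 0 and 6 for the pulses, 10 for the average, 0 for day 5 minus day 1, and 6, 2 and 5 for the timed controls. Signal over background limits the 9 members in the lowest 40% of clusters.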
